A study of Mus musculus with 8 samples.

Results

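The transcripts described here come from 36 genes that mark cells other than neurons in the brain: 12 of microglia, 12 of blood vessel endothelium, and 12 of mural cells and connective tissue. They were taken as a fixed list, by gene symbol, from the 38924 genes counted in each of 8 libraries. Microglia are the resident immune cells of the brain. They take up debris, make the complement protein C1q, and depend on signals through the receptor encoded by Csf1r. Endothelial cells line the vessels, and their tight junctions and transporters form the blood-brain barrier. Pericytes and smooth muscle cells wrap the vessels, and fibroblasts of the meninges make fibrillar collagens. In a ribosome pull-down from neurons these transcripts are taken as a measure of RNA from other cells. No unbound or whole-tissue RNA is among the 8 libraries, and expression of these genes in the neurons themselves was not tested.

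RNA was purified by bacTRAP, in which a tagged ribosomal protein is made in chosen cells of a transgenic mouse and its ribosomes are captured with their RNA. The 8 libraries, all of mouse, were 2 of midbrain dopamine neurons labelled datL, 2 labelled datM, 1 labelled Lateral, 1 labelled Medial, and 2 of hindbrain serotonin neurons. The letters L and M are not spelled out in the labels. The design text gives the dopamine transporter (DAT) line for dopamine neurons and the SLC6A4 line for serotonin neurons, while the description of all 8 libraries names the DAT line, Slc6a3 JD1640. The tag is therefore driven by a transporter gene that is used by neurons, and all libraries, serotonin included, carry tagged ribosomes. Embryos were dissected on embryonic day 15, and the same protocol text says that midbrain of day 18 was taken on day 15 and kept for 3 days in culture. The file headers mark only Lateral and Medial with E18. They place Lateral, Medial and both serotonin libraries on lane 8, and datL and datM in a run folder of October. Whether replicates are separate litters or cultures is not stated, and a p-value here covers the spread among these libraries alone, technical or not.

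Totals ran from 22417739 to 33216710 counts per library, and 11708 to 15656 genes had a count. The 12 general neuronal genes together made 15744 to 23049 CPM (a count scaled to its library's total), and all 12 had at least 100 counts in all 8 libraries. The 6 genes of serotonin neurons summed to 37.1 to 423 CPM in the dopamine libraries and 4176 to 4997 CPM in the serotonin libraries. Gata3 made 99.9% of the 423 CPM, the sum of datL replicate 1. The 8 dopamine neuron genes summed to 388 to 2069 CPM in dopamine libraries and 1077 to 1266 CPM in serotonin libraries. Among them Ddc, an enzyme that serotonin neurons also make, gave 68.8% and 60.7% of the sums in serotonin replicates 1 and 2. The rest came from other genes of the list.

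Transcripts of these microglial, vascular and stromal genes were rare in every pull-down and unevenly spread. Those of the 13 astrocyte and radial glia genes were not rare, at 1067 to 5200 CPM. The 36 genes together made 103 and 98.9 CPM in datL, 166 and 445 CPM in datM, 95.7 CPM in Lateral and 441 CPM in Medial, against 21.5 and 128 CPM in serotonin. The highest total, in datM replicate 2, was 0.0445% of that library's counts. Of the 288 values (36 genes in 8 libraries), 144 were 0, 39 were 1 to 3 counts, and 58 were 100 counts or more. In these pull-downs fewer cells of a type and less RNA per cell cannot be told apart.

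**Figure D1:**
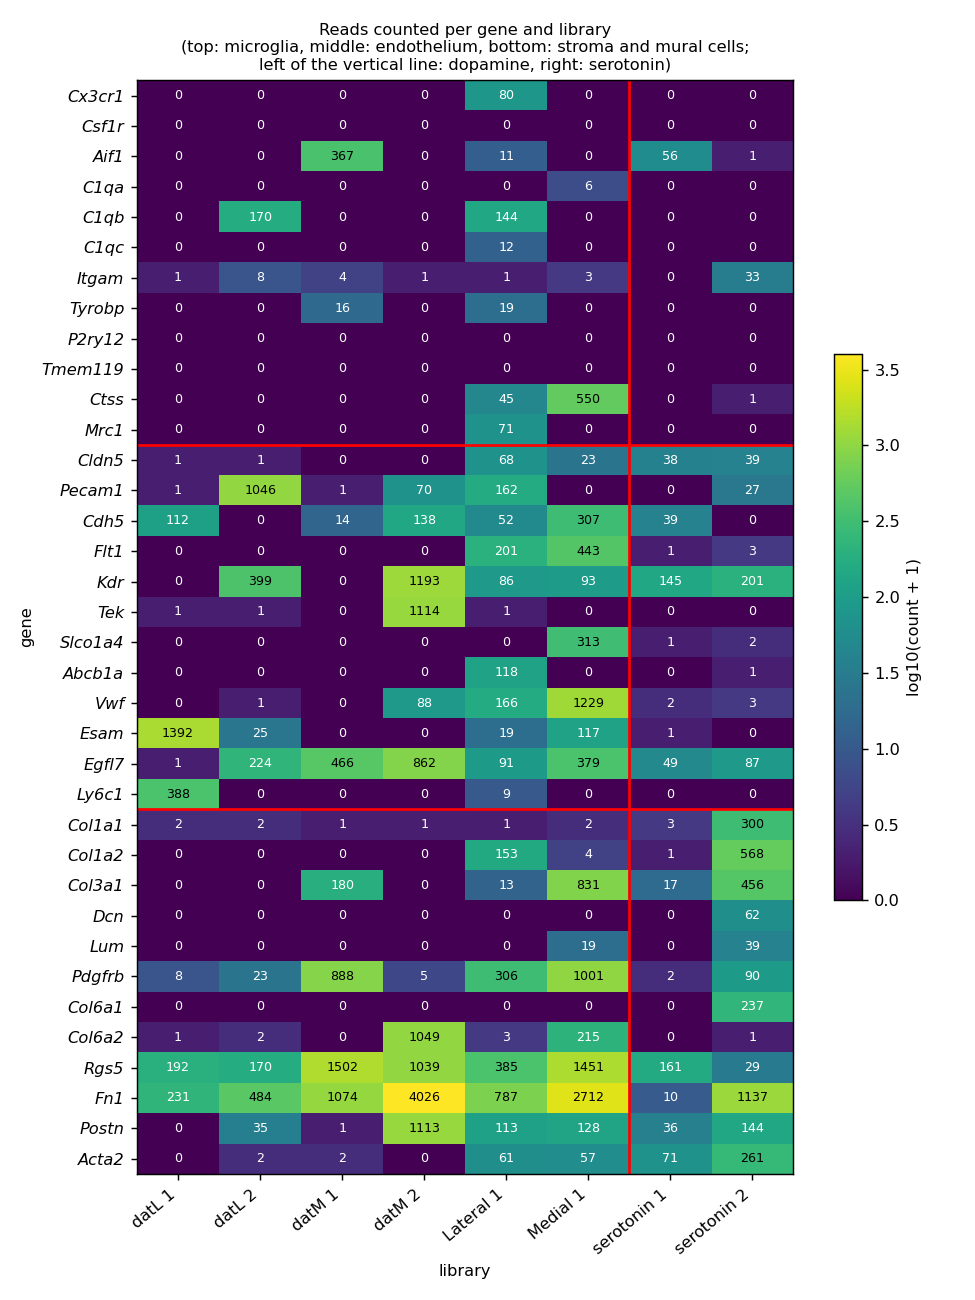
Reads counted for each of the 36 genes (rows) in each library (columns); the number is the count and the colour its log10(count + 1). Horizontal lines part the 3 classes and the vertical line parts dopamine from serotonin libraries. High counts stand beside 0 within the same pair of replicates, as for Pecam1 with 1 and 1046 counts in datL.

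The microglial genes were the scarcest class, and its defining members were not seen. Csf1r, the receptor on which microglia depend for survival, P2ry12, a purine receptor that marks resting microglia, and Tmem119, a surface marker of microglia, had 0 counts in all 8 libraries. With 0 counts, a level of up to 3 counts, or 0.0903 to 0.134 CPM depending on the library, would not have been seen. Cx3cr1, the receptor for the neuronal chemokine fractalkine, had 80 counts in Lateral and 0 in the other 7 libraries. Mrc1, the mannose receptor of macrophages at brain borders, had 71 counts in Lateral and 0 elsewhere. The Cx3cr1 interval of the annotation overlaps 5 other genes, 2 of them on the opposite strand, and counting ignored strand, so reads of those genes may be among its 80.

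The genes of the class highest per kilobase were Ctss, Aif1, C1qb and Tyrobp. Ctss, a lysosomal cysteine protease of phagocytes (ENSMUSG00000038642.4, chromosome 3, 95526786 to 95556403, mm10), had 0 throughout datL and datM, 45 in Lateral and 550 in Medial, against 0 and 1 in serotonin. Aif1, which encodes the microglial calcium-binding protein Iba1, had 0 in both datL libraries, 367 and 0 in datM, 11 in Lateral and 0 in Medial, against 56 and 1 in serotonin. C1qb had 0 and 170 counts in datL, 0 in both datM libraries, 144 in Lateral and 0 in Medial, against 0 in both serotonin libraries. Each of these 3 genes thus stood high in a different library, and none was high in both members of a replicate pair. Tyrobp, a signalling adaptor of myeloid receptors, was at 0 in both datL libraries, 16 and 0 in datM, 19 in Lateral and 0 in Medial, against 0 in both serotonin libraries. Itgam, the integrin CD11b, did not exceed 8 counts in any dopamine library and had 0 and 33 in serotonin. Per kilobase of gene length, the mean over the 8 libraries was 2.39 CPM for Ctss, 1.28 for Aif1, 1.24 for C1qb and 0.257 for Tyrobp.

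The 3 chains of C1q assemble into 1 protein, and their genes lie side by side on chromosome 4 (136880129 to 136898803, mm10), yet they were not counted together. C1qa, the A chain, had 6 counts in Medial and 0 elsewhere. C1qc, the C chain, had 12 counts in Lateral and 0 elsewhere. In Lateral the B and C chains were both over 3 counts and the A chain was at 0. In datL replicate 2, where C1qb had 170 counts, both other chains were at 0.

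In a second list of 30 microglia and macrophage genes, 12 reached 100 counts in at least 1 library. Among them, Laptm5, a lysosomal membrane protein of blood cells, had 1452 counts in datM replicate 1, Cd53, a tetraspanin of leukocytes, had 673 in Medial, and Cd68, a lysosomal protein of macrophages, had 437 in datL replicate 2. Another 7 genes of the list, Trem2, Siglech, P2ry13, Fcgr3, Cd14, Lyz2 and Cd163, were at 0 in all 8 libraries. Coro1a, an actin-binding protein, was the only gene of the list with at least 100 counts in all 8, at 908 to 4979 counts. At 37.8 to 168 CPM it entered that list's summed level of 86.4 to 304 CPM, and it is made in cells other than microglia as well. Ptprc, the pan-leukocyte phosphatase CD45, had 5 counts in Lateral and 0 elsewhere.

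Endothelial genes were found in every library, but a different set of them in each. Egfl7, a secreted endothelial factor (ENSMUSG00000026921.12, chromosome 2, 26580014 to 26593120, mm10), was the most widely seen, with 1 and 224 counts in datL, 466 and 862 in datM, 91 in Lateral and 379 in Medial, against 49 and 87 in serotonin. Its level per kilobase, a mean of 3.00 CPM over the 8 libraries, was the highest of the class, and its annotation overlaps 3 other genes, 1 of them on the opposite strand. Esam, a cell adhesion molecule of endothelial junctions (ENSMUSG00000001946.7, chromosome 9, 37528078 to 37538319, mm10), followed at 2.97 CPM per kilobase. It had 1392 and 25 counts in datL, 0 in both datM libraries, 19 in Lateral and 117 in Medial, against 1 and 0 in serotonin. Its mean thus rested on datL replicate 1. Ly6c1, a surface antigen of brain vessels with close paralogs that make its counts uncertain, had 388 and 0 counts in datL, 0 in both datM libraries, 9 in Lateral and 0 in Medial, against 0 in both serotonin libraries.

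The receptors of the class behaved likewise. Kdr, the main receptor for the growth factor VEGF-A (ENSMUSG00000062960.7, chromosome 5, 75932827 to 75978458, mm10), had 0 and 399 counts in datL, 0 and 1193 in datM, 86 in Lateral and 93 in Medial, against 145 and 201 in serotonin. Flt1, the other VEGF receptor of the list, had 0 counts throughout datL and datM, 201 in Lateral and 443 in Medial, against 1 and 3 in serotonin. The 2 VEGF receptors, both made by endothelium, were therefore spread differently over the libraries: datM replicate 2 held the highest Kdr count and no Flt1. Tek, the angiopoietin receptor Tie2, had 1114 counts in datM replicate 2 and 0 or 1 in the other 7 libraries.

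Genes of the vessel wall and barrier were just as uneven. Vwf, the clotting factor stored in endothelial granules (ENSMUSG00000001930.11, chromosome 6, 125546774 to 125686679, mm10), had 0 and 1 counts in datL, 0 and 88 in datM, 166 in Lateral and 1229 in Medial, against 2 and 3 in serotonin. Cldn5, the main tight junction claudin of brain endothelium, had 1 and 1 counts in datL, 0 in both datM libraries, 68 in Lateral and 23 in Medial, against 38 and 39 in serotonin. It was present in the whole of lane 8 and nearly absent from the October run. Pecam1, an adhesion molecule of endothelial contacts, had 1 and 1046 counts in datL, 1 and 70 in datM, 162 in Lateral and 0 in Medial, against 0 and 27 in serotonin. Cdh5, VE-cadherin, had 112 and 0 in datL, 14 and 138 in datM, 52 in Lateral and 307 in Medial, against 39 and 0 in serotonin. Slco1a4, an organic anion transporter of the barrier, had 313 counts in Medial and at most 2 elsewhere. Abcb1a, a drug efflux pump whose paralog Abcb1b makes its counts uncertain, had 118 counts in Lateral and at most 1 elsewhere, the lowest level per kilobase of the class at 0.0818 CPM.

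Stromal and mural genes had the highest summed level of the 3 classes in 6 of 8 libraries, and in both datL libraries the endothelial sum was higher. Fn1, fibronectin (ENSMUSG00000026193.9, chromosome 1, 71585523 to 71653171, mm10), had 231 and 484 counts in datL, 1074 and 4026 in datM, 787 in Lateral and 2712 in Medial, against 10 and 1137 in serotonin. Rgs5, a G-protein regulator that marks pericytes (ENSMUSG00000026678.5, chromosome 1, 169655501 to 169695813, mm10), had 192 and 170 counts in datL, 1502 and 1039 in datM, 385 in Lateral and 1451 in Medial, against 161 and 29 in serotonin. Both had at least 100 counts in 7 of 8 libraries, with the exception a serotonin library in each case, replicate 1 for Fn1 and replicate 2 for Rgs5. Per kilobase they averaged 6.31 and 5.39 CPM over the 8 libraries. Pdgfrb, the pericyte receptor for PDGF-B, had 8 and 23 counts in datL, 888 and 5 in datM, 306 in Lateral and 1001 in Medial, against 2 and 90 in serotonin. Acta2, smooth muscle actin, had 0 and 2 counts in datL, 2 and 0 in datM, 61 in Lateral and 57 in Medial, against 71 and 261 in serotonin. Other actin genes are close to it in sequence, so its counts are uncertain. Like Cldn5 it was counted in lane 8 and hardly at all in the October run.

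Several collagen and proteoglycan genes of fibroblasts were highest in serotonin replicate 2, while Col3a1 was highest in Medial and Col6a2 in datM replicate 2. Col1a1 and Col1a2 encode the 2 chains of collagen I. Col1a1 had 1 or 2 counts in all 6 dopamine libraries, against 3 and 300 in serotonin. Col1a2 had 0 throughout datL and datM, 153 in Lateral and 4 in Medial, against 1 and 568 in serotonin. Collagen I was thus counted with both chains in serotonin replicate 2, and Lateral had Col1a2 with a single Col1a1 count. Dcn, decorin, a proteoglycan that binds collagen fibrils and the lowest member of the class per kilobase at 0.128 CPM, had 62 counts in serotonin replicate 2 and 0 elsewhere. Lum, lumican, its neighbour on chromosome 10, had 39 counts there, 19 in Medial and 0 elsewhere. Of the 12 stromal and mural genes, 6 had their highest CPM in serotonin replicate 2 (Col1a1, Col1a2, Dcn, Lum, Col6a1 and Acta2), and none in serotonin replicate 1.

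Col6a1 and Col6a2 encode 2 chains of collagen VI and lie 85.2 kb apart on chromosome 10 (76595762 to 76726168, mm10). Col6a1 had 237 counts in serotonin replicate 2 and 0 elsewhere. Col6a2 had 1 and 2 counts in datL, 0 and 1049 in datM, 3 in Lateral and 215 in Medial, against 0 and 1 in serotonin. In 3 libraries 1 of these chains was over 3 counts, and in 0 libraries both were. Col3a1, the chain of collagen III, had 0 counts in both datL libraries, 180 and 0 in datM, 13 in Lateral and 831 in Medial, against 17 and 456 in serotonin. Postn, periostin, a matrix protein, had 0 and 35 counts in datL, 1 and 1113 in datM, 113 in Lateral and 128 in Medial, against 36 and 144 in serotonin.

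**Figure D2:**
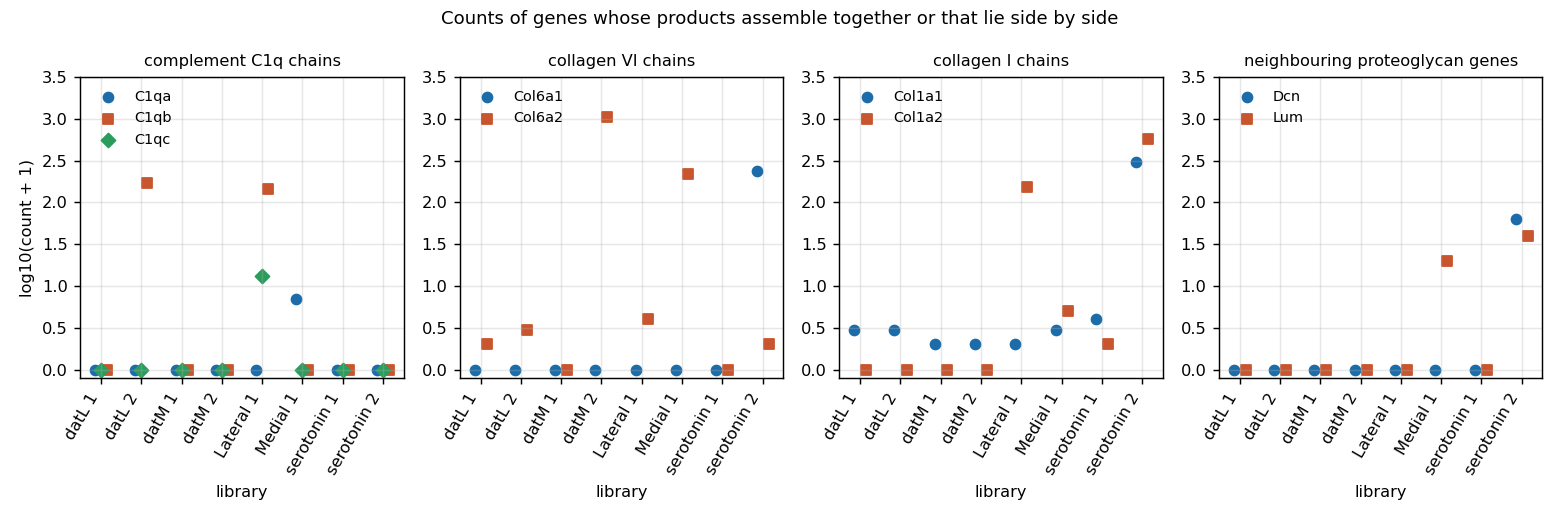
log10(count + 1) in each library for genes whose products assemble into 1 protein (C1q, collagen VI, collagen I) or that are neighbours (Dcn and Lum). The collagen VI chains were never both over 3 counts in 1 library, while both collagen I chains were in serotonin replicate 2.

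Most of these genes were well counted in few libraries. Of the 36 genes, 24 reached 100 counts in at least 1 library. Among these 24, 9 reached it in exactly 1 library, 7 in 2, 3 in 3, 3 in 4, 2 in 7 and 0 in all 8. Over all 12954 genes that reached 100 counts somewhere, 9.47% did so in exactly 1 library and 37.2% in all 8. For the 25 members with at least 100 counts in total, the library where a gene was highest held a median of 80.2% of its summed CPM, against 31.3% over 13564 genes and 21.3% for the 12 neuronal genes. These shares depend on level, and the members are low. Medial held the highest value of 9 members, serotonin replicate 2 of 7, datM replicate 2 of 6, Lateral of 5, datL replicates 1 and 2 and datM replicate 1 of 2 each, and serotonin replicate 1 of 0.

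**Figure D3:**
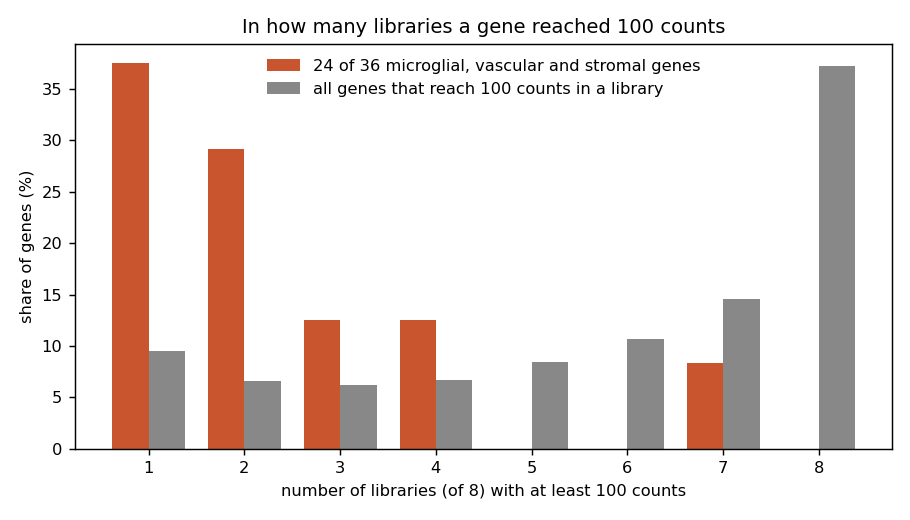
Share of genes (vertical axis, %) that reached 100 counts in a given number of libraries (horizontal axis), for the 24 members and for all 12954 genes that reached it anywhere. The members stand mostly at 1 and 2 libraries, and 37.2% of all genes stand at 8.

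Replicates of 1 group often differed by whole genes. In the datL pair, 9 members had at least 100 counts in either library, and 6 of them (C1qb, Pecam1, Cdh5, Kdr, Egfl7 and Ly6c1) had 3 counts or fewer in the other. That is 66.7%, against 20.4% of all genes and 34.4% of the genes whose higher count lay in the same range. In the datM pair it was 6 of 11 (Aif1, Kdr, Tek, Col3a1, Col6a2 and Postn), or 54.5%, against 20.4% of all genes and 24.9% in the same range. In the serotonin pair it was 3 of 9 (Col1a1, Col1a2 and Col6a1), or 33.3%, against 1.83% of all genes and 3.21% in the same range. Loss in the partner was thus commoner over all genes in both October pairs than in the serotonin pair, and the members' share was above that of all genes in each pair. No test was made of these shares.

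Summed by class, the level of the endothelial genes was higher in dopamine than in serotonin pull-downs. Class sums were compared by their ranges and not tested. These 12 genes made 78.2 ± 51.5 CPM across dopamine pull-downs (SD, n = 6) and 10.9 ± 2.18 CPM across serotonin pull-downs (SD, n = 2). The ratio was 7.16. Every dopamine library, at 17.7 to 144 CPM, exceeded both serotonin libraries, at 9.37 and 12.4 CPM. In both datL libraries and datM replicate 1, few genes carried these sums. Of the 12, 3 and 4 were over 3 counts in datL, 2 and 6 in datM, 10 in Lateral and 8 in Medial, against 4 and 4 in serotonin. Esam alone made 73.4% of the class's counts in datL replicate 1, Pecam1 61.6% in datL replicate 2 and Egfl7 96.9% in datM replicate 1, the lowest dopamine library, while Kdr made 52.5% and 55.4% in serotonin. Sums of the 30 further endothelial genes, at 163 to 479 CPM for dopamine and 92.4 to 120 CPM for serotonin, were also apart. The number of genes seen was not: 16 to 19 were over 3 counts in serotonin. In datL and datM it was 8 to 12, and in Lateral and Medial 13 to 27. Microglial genes overlapped between the groups, with 9.59 ± 9.49 CPM for dopamine and 1.55 ± 0.495 CPM for serotonin (SD, n = 6 and n = 2). Stromal and mural genes overlapped too, with 137 ± 128 CPM for dopamine and 62.1 ± 73.4 CPM for serotonin. The stromal ratio of 2.21 was 13.4 without serotonin replicate 2.

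**Figure D4:**
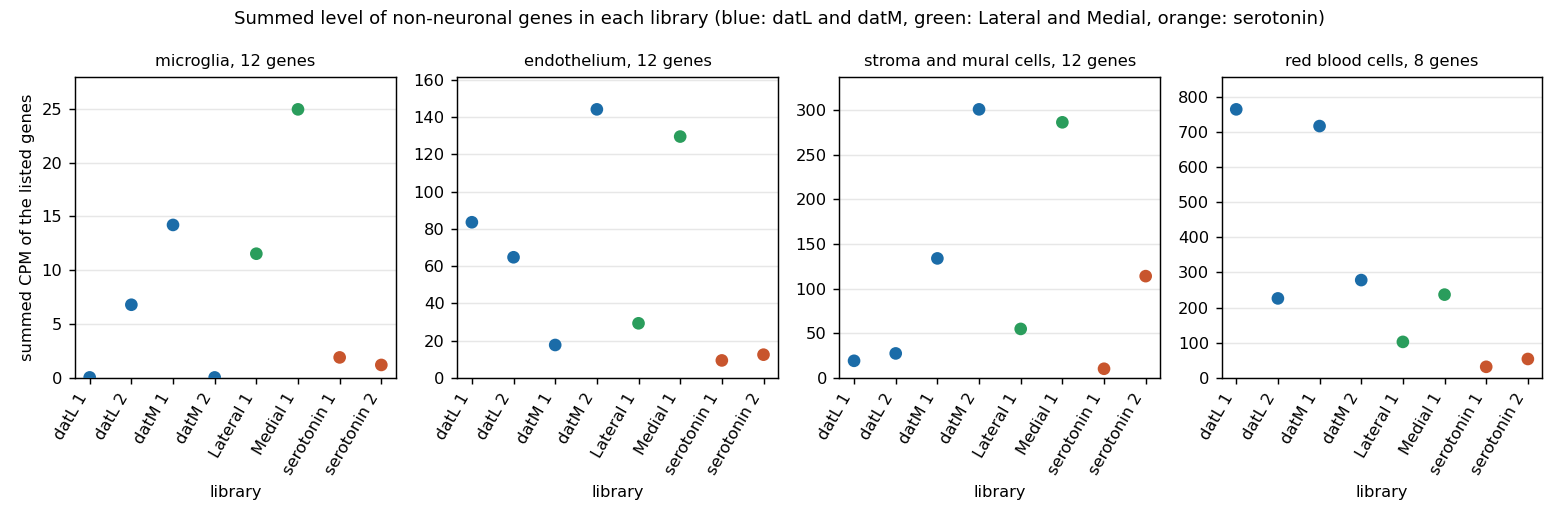
Summed CPM of each class and of 8 red blood cell genes in every library, on linear axes that start at 0. Every dopamine library lies above both serotonin libraries for endothelium and for red blood cells, and serotonin replicate 2 lies among the dopamine libraries for stroma and mural cells.

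Red blood cell and astrocyte sums were also higher in every dopamine library than in both serotonin libraries. Sums of oligodendrocyte lineage genes and of choroid plexus and ependymal genes overlapped between the groups. So did those of the further mural and stromal genes and of the further microglia and macrophage genes. Red blood cell genes, of which 4 globins had at least 100 counts in all 8 libraries, summed to 102 to 764 CPM for dopamine and 31.5 to 53.7 CPM for serotonin. The 13 astrocyte and radial glia genes summed to 2115 to 5200 CPM for dopamine and 1067 to 1455 CPM for serotonin, and none of them was at 0 in all libraries. Midbrain was the tissue of all dopamine libraries and hindbrain of both serotonin libraries. Neuron type, brain region and the amount of blood or vessel in the dissected tissue cannot be told apart.

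Gene by gene, no member passed the test between dopamine and serotonin. Of the 36 genes, 21 were abundant enough for edgeR's quasi-likelihood test, and 0 had a Benjamini-Hochberg adjusted p under 0.05 in either direction, beside 0% of all 13806 genes. At an unadjusted p under 0.05 the members also numbered 0 higher and 0 lower, beside 2.80% and 1.90% of all genes. DESeq2 called 1 member, C1qb, and limma-voom 0. Both called more of all genes than edgeR did, with the counts in the closing section. Of the 21, 16 had a fold change above 0 with a median log2 of 2.78, beside 58.9% and 0.26 over all genes tested; low genes pass the filter through the group where they are high.

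Rgs5 was the only member tested for which every dopamine library exceeded both serotonin libraries, beside 3.06% of all genes tested. It averaged 31.6 ± 25.9 CPM for dopamine and 3.23 ± 3.16 CPM for serotonin (SD, n = 6 and n = 2), a log2 fold change of 3.38 (SE 1.56, adjusted p = 1.00 in edgeR). No member was the other way round, beside 8.59% of all genes. Esam, at 11.3 ± 24.6 CPM for dopamine and 0.0170 ± 0.0240 CPM for serotonin, had a log2 fold change of 9.23 (SE 4.67, adjusted p = 1.00 in edgeR). Vwf had one of 6.82 (SE 4.21) and Col6a2 of 8.76 (SE 4.72), both with an adjusted p = 1.00 in edgeR. Each of these 3 rested on few libraries: Esam on datL replicate 1, Vwf on Medial, and Col6a2 on datM replicate 2 and Medial. By mean, C1qb was at least 35.2-fold higher in dopamine libraries and Tyrobp at least 3.78-fold. The bound was 3 counts over both serotonin libraries, where each was at 0. C1qb was counted only in datL replicate 2 (170) and Lateral (144), and Tyrobp only in datM replicate 1 (16) and Lateral (19). Both genes passed the expression filter through these dopamine libraries, so only the higher side was open to them. Their edgeR adjusted p-values were 1.00.

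Within lane 8, the endothelial and microglial sums were also higher in Lateral and Medial than in both serotonin libraries. The microglial sum of Medial rested on Ctss, and 0 members passed the test. The 12 endothelial genes summed to 29.3 CPM in Lateral and 130 CPM in Medial, against 9.37 and 12.4 CPM in serotonin, and the ratio of 7.28 was 11.9 without Lateral and 2.69 without Medial. The microglial genes summed to 11.5 and 24.9 CPM in Lateral and Medial, against 1.90 and 1.20 CPM in serotonin, and the ratio of 11.8 was 3.45 without Ctss, 16.1 without Lateral and 7.44 without Medial. In Medial, Ctss made 98.4% of the class's counts, beside 6 counts of C1qa (0.268 CPM) and 3 of Itgam (0.134 CPM). Without Ctss, Medial thus lay below both serotonin libraries, and the ratio of 3.45 came from Lateral alone. The 30 further microglia and macrophage genes overlapped, at 189 and 176 CPM in Lateral and Medial and 146 and 215 CPM in serotonin. The stromal and mural genes overlapped, at 54.9 and 286 CPM in Lateral and Medial and 10.2 and 114 CPM in serotonin. Their ratio of 2.75 was 16.7 without serotonin replicate 2 and 0.883 without Medial. Here Lateral and Medial carry the E18 mark and serotonin does not, so neuron type, region and this mark cannot be told apart.

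Of 17 members tested in this comparison, edgeR placed 0 at an adjusted p under 0.05, beside 0.00746% of all 13400 genes called higher and 0.0149% called lower. At an unadjusted p under 0.05, 5 were higher (Ctss, Flt1, Vwf, Esam and Rgs5) and 0 lower, beside 7.34% and 6.46% of all genes. Of these, Ctss, Flt1, Vwf and Esam had 0 to 3 counts in each serotonin library. They passed the expression filter through Lateral and Medial, so only the higher side was open to them. Both Lateral and Medial lay above both serotonin libraries in 7 members (those 5, Cdh5 and Pdgfrb) and below them in 1 (Kdr), beside 25.0% and 24.6% of all genes. Vwf averaged 29.9 ± 35.2 CPM in Lateral and Medial and 0.0854 ± 0.0248 CPM in serotonin (SD, n = 2 each), a log2 fold change of 8.25 (SE 1.71, adjusted p = 0.273 in edgeR). Flt1 averaged 12.9 ± 9.69 CPM in Lateral and Medial and 0.0684 ± 0.0488 CPM in serotonin, a log2 fold change of 7.36 (SE 1.78, adjusted p = 0.281 in edgeR). Both are endothelial, and Kdr, the partner receptor of Flt1, had a log2 fold change of -0.90 (SE 1.34, adjusted p = 0.841 in edgeR).

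Ctss had 595 counts in Lateral and Medial together and 1 in serotonin, a ratio of 627 with a 95% interval of 112 to 24807 from counting alone (log2 fold change 9.11, SE 2.53, adjusted p = 0.286 in edgeR). Rgs5 and Pdgfrb, both pericyte genes, had log2 fold changes of 3.43 (SE 1.27, adjusted p = 0.323 in edgeR) and 3.98 (SE 1.82, adjusted p = 0.413 in edgeR). DESeq2 called 4 members, Rgs5, Ctss, Flt1 and Vwf, and limma-voom 0. Over all genes DESeq2 also called far more than edgeR, with the counts in the closing section. Without Lateral, log2 fold changes in edgeR were 10.02 for Ctss, 7.95 for Flt1, 9.12 for Vwf, 7.84 for Slco1a4 and 8.66 for Col6a2. Medial was then the lone dopamine library, assumed to vary like the serotonin pair. Without serotonin replicate 2, the log2 fold change of Fn1 was 7.57.

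Other genes of the same cell types, from lists of 30 each, were set beside these. An unadjusted p under 0.05 was reached by 7.34% of all genes tested on the higher side and 6.46% on the lower. Of 17 further endothelial genes tested, 4 had an unadjusted p under 0.05 and all 4 were higher in Lateral and Medial: Slc2a1, the glucose transporter of the barrier, Tjp1, a tight junction scaffold, Plvap, a protein of vessel pores, and Itm2a. Of 19 further mural and stromal genes tested, 5 were higher: the pericyte gene Kcnj8, Cspg4, which pericytes and oligodendrocyte precursors make, the basement membrane collagens Col4a1 and Col4a2, and the matrix protein Sparc. Of 10 further microglia and macrophage genes tested, 0 were. Cspg4, the proteoglycan NG2, had 1957 and 3257 counts in Lateral and Medial, against 11 and 111 in serotonin. The 10 oligodendrocyte lineage genes summed to 359 and 658 CPM in Lateral and Medial, against 190 and 214 CPM in serotonin, and 4 of 10 tested (Pdgfra, Cspg5, Olig1 and Mbp) were higher at an unadjusted p under 0.05. Pdgfra, the PDGF receptor of oligodendrocyte precursors, had 1840 and 2705 counts in Lateral and Medial, against 68 and 278 in serotonin. The part of these cells in the Cspg4 value was not tested. Of the ligands of the members' receptors, 0 of 7 tested had an unadjusted p under 0.05. None of these genes passed after adjustment over all genes in edgeR.

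**Figure D5:**
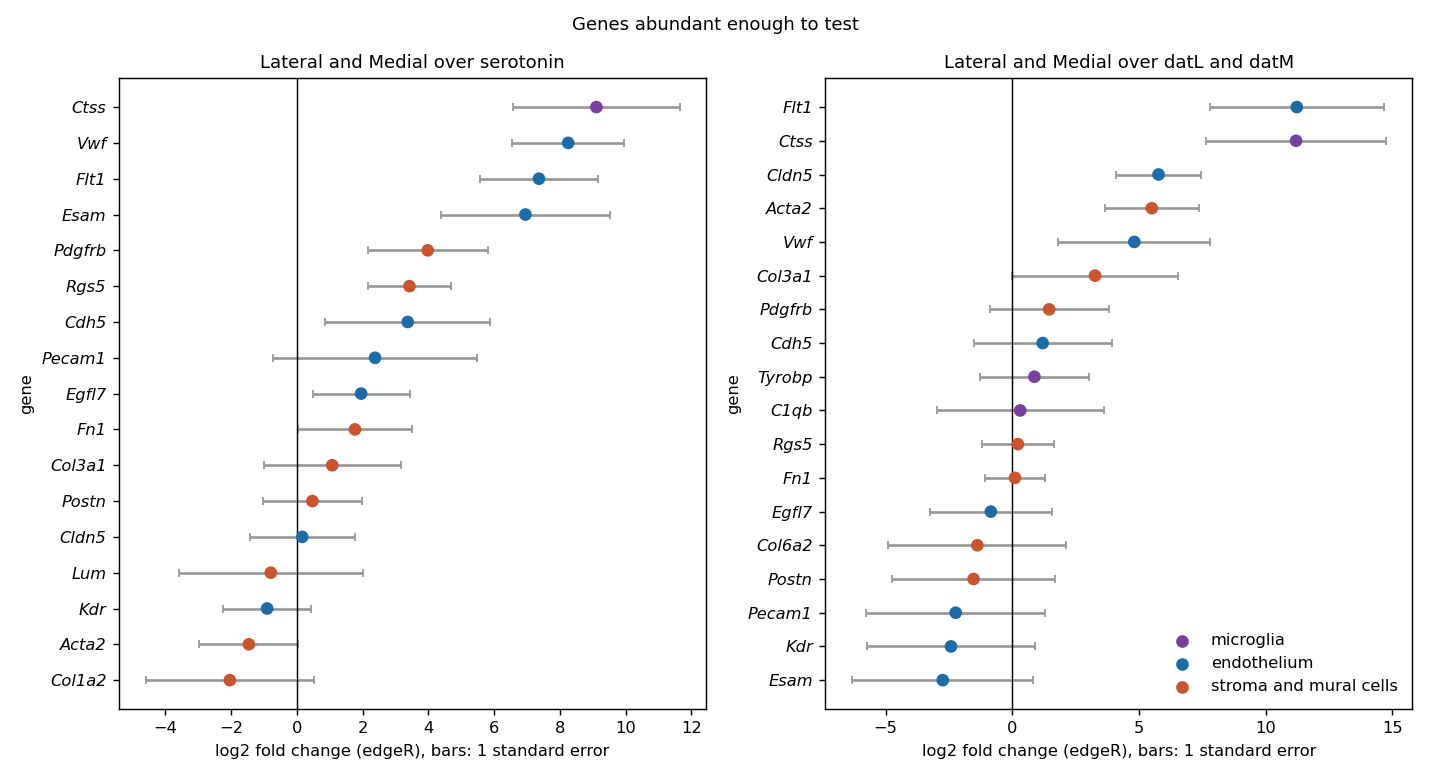
log2 fold changes (points) with 1 standard error (bars) for the members that could be tested, in Lateral and Medial over serotonin and in Lateral and Medial over datL and datM. Ctss and Flt1 stand to the far right in both panels; the 2 panels share the Lateral and Medial libraries.

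Between datL and datM the stromal and mural sums did not overlap. Its 12 genes made 23.3 ± 5.85 CPM in datL and 217 ± 118 CPM in datM (SD, n = 2 each), a ratio of 0.107, and both datL libraries, at 19.1 and 27.4 CPM, lay below both datM libraries, at 134 and 301 CPM. The ratio ran from 0.0773 without datM replicate 1 to 0.174 without datM replicate 2. Fn1 and Rgs5 gave part of it: both lay lower in datL than in datM in every library, with log2 fold changes of -2.77 (SE 1.84, adjusted p = 0.669 in edgeR) and -2.63 (SE 1.51, adjusted p = 0.601 in edgeR). The other datM counts came from different genes in each replicate: Pdgfrb and Col3a1 in replicate 1, and Postn and Col6a2 in replicate 2. The 30 further mural and stromal genes summed to 107 and 112 CPM in datL, against 569 and 646 CPM in datM. Of 25 tested, 6 were lower in datL at an unadjusted p under 0.05 (Col4a1, Cspg4, Ndufa4l2, Sparc, Vtn and Bgn), beside 3.52% of all genes tested. Cspg4, Ndufa4l2, Vtn and Bgn had 0 or 1 counts in each datL library, so only the lower side was open to them. Cspg4, with 646 and 1 counts in datM, and Ndufa4l2, with 701 and 3, rested on datM replicate 1.

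Sums of other lists were also lower in both datL libraries. The further endothelial genes summed to 163 and 231 CPM in datL, against 319 and 327 CPM in datM. Choroid plexus and ependymal genes summed to 1.59 and 8.47 CPM in datL, against 16.7 and 57.1 CPM in datM. The dopamine neuron genes themselves summed to 388 and 858 CPM in datL, against 1244 and 1834 CPM in datM. The part of these differences in the stromal result was not tested.

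Endothelial and microglial members overlapped between datL and datM. The endothelial sum was 83.5 and 64.7 CPM in datL, against 17.7 and 144 CPM in datM. Its ratio of 0.916 ran from 0.514 without datM replicate 1 to 4.20 without datM replicate 2. The microglial sum was 0.0441 and 6.79 CPM in datL, against 14.2 and 0.0416 CPM in datM, and rested on C1qb in datL replicate 2 and Aif1 in datM replicate 1. The 13 astrocyte and radial glia genes summed to 2115 and 3832 CPM in datL, against 3251 and 5200 CPM in datM, and overlapped too. Of these 13, 5 were lower in datL at an unadjusted p under 0.05, beside 3.52% of all genes tested.

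No member passed the test of datL against datM. Of the 31 tested, edgeR called 0, beside 0% of 15177 genes. DESeq2 called 4 (Esam, Ly6c1, Aif1 and Col6a2) and limma-voom 0. Both called far more of all genes than edgeR did, with the counts in the closing section. At an unadjusted p under 0.05, 1 member was higher (Esam) and 0 lower, beside 3.40% and 3.52% of all genes. The libraries did not overlap in 6 members, 3 higher in datL (Esam, Col1a1 and Cldn5) and 3 lower (Fn1, Rgs5 and Egfl7), beside 11.3% and 13.2% of all genes. Col1a1 and Cldn5 had at most 2 counts in any of these libraries. Esam was at least 532-fold higher in datL, set against 3 counts over both datM libraries (log2 fold change 12.85, SE 4.19, adjusted p = 0.597 in edgeR), and 1392 of its 1417 datL counts lay in replicate 1.

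The other named genes each came from 1 library. Aif1 was at least 110-fold and Col3a1 at least 53.8-fold lower in datL, with 3 counts over both datL libraries as the bound, and datM replicate 1 held all of their datM counts. C1qb was at least 55.4-fold higher in datL and came from replicate 2. Tek had 2 counts in datL and 1114 in datM, all in replicate 2 (log2 fold change -8.90, SE 4.48). Col6a2 had 3 counts in datL and 1049 in datM, again all in replicate 2 (log2 fold change -8.31, SE 4.13). The edgeR adjusted p was 0.597 for each, and the Col6a2 fold change was 3.96 without datM replicate 2.

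The class sums of Lateral and Medial overlapped with those of datL and datM, and more members were counted in Lateral and Medial. The endothelial sums overlapped, at 29.3 and 130 CPM in Lateral and Medial and 17.7 to 144 CPM in datL and datM. So did the stromal and mural sums, at 54.9 and 286 CPM in Lateral and Medial and 19.1 to 301 CPM in datL and datM, and the microglial sums, at 11.5 and 24.9 CPM in Lateral and Medial and 0.0416 to 14.2 CPM in datL and datM. The number of members with more than 3 counts was 24 and 19 in Lateral and Medial and 6 to 11 in datL and datM. Over all genes, 15656 and 13703 were detected in Lateral and Medial, against 11708 to 12509 in datL and datM. Run, lane and the E18 mark go with these sets of libraries and cannot be told apart.

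Of 18 members tested here, edgeR called 0 at an adjusted p under 0.05, beside 0% of 12818 genes, and DESeq2 and limma-voom called 0. At an unadjusted p under 0.05, 4 were higher in Lateral and Medial (Ctss, Flt1, Cldn5 and Acta2) and 0 lower, beside 3.81% and 0.663% of all genes. All 4 had 0 to 2 counts in each datL and datM library. They passed the expression filter through Lateral and Medial, so only the higher side was open to them. Both libraries lay above all 4 datL and datM libraries in 5 members, those 4 and Vwf, and below in 0, beside 12.5% and 2.77% of all genes. Flt1 was at least 431-fold and Ctss at least 432-fold higher, set against 3 counts over the 4 datL and datM libraries, where both were at 0 (edgeR adjusted p = 0.471 and 0.491). Cldn5 had 91 counts in Lateral and Medial together and 2 in datL and datM, a ratio of 81.9 with a 95% counting interval of 22.0 to 687 (log2 fold change 5.78, SE 1.69, adjusted p = 0.469 in edgeR). Acta2 averaged 2.19 ± 0.499 CPM in Lateral and Medial (SD, n = 2) and 0.0374 ± 0.0432 CPM in datL and datM (SD, n = 4), a log2 fold change of 5.51 (SE 1.85, adjusted p = 0.475 in edgeR).

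For Cldn5 and Acta2 the serotonin libraries, of the same lane but without the E18 mark, stood at the level of Lateral and Medial or above it: 38 and 39 counts for Cldn5, and 71 and 261 for Acta2. For Flt1 and Ctss they did not, with at most 3 counts. Tyrobp and Col3a1 had log2 fold changes of 0.88 (SE 2.17) and 3.27 (SE 3.29), both with an adjusted p = 1.00 in edgeR. Without Lateral the fold change of Tyrobp was -4.93, and without Medial that of Col3a1 was -2.12.

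Lateral and Medial, with 1 library each, allow no test. Medial had the higher sum in every class. Endothelial genes summed to 29.3 CPM in Lateral and 130 CPM in Medial, and stromal and mural genes to 54.9 and 286 CPM. Microglial genes summed to 11.5 CPM in Lateral and 24.9 CPM in Medial, an order that rested on Ctss. Ctss alone was at 1.35 CPM in Lateral and 24.5 CPM in Medial, where it made 98.4% of the class's counts. Of the microglial genes, 7 were over 3 counts in Lateral and 2 in Medial. Of 19 members with at least 100 counts in both libraries together, 4 were 2-fold or more higher in Lateral (Pecam1, C1qb, Abcb1a and Col1a2) and 12 were 2-fold or more lower, beside 25.0% and 24.2% of 11867 genes. Pecam1 was at least 36.4-fold and C1qb at least 32.4-fold higher in Lateral, against the bound of 3 counts in Medial, where each was at 0. Slco1a4 was at least 155-fold lower in Lateral. Col6a2 had 3 counts in Lateral and 215 in Medial, which was 106-fold higher in Medial with a 95% counting interval of 35.9 to 519. Kdr, Postn and Acta2 differed by less than 2-fold. Members of 1 cell type thus went both ways: Pecam1 and Abcb1a were higher in Lateral, and Vwf and Slco1a4, also endothelial, were higher in Medial.

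Of the 10 ligands that signal to these cells, the library where a gene was highest held a median of 53.9% of its summed CPM (24.4% to 100%), against the 80.2% of the members. Vegfa, the ligand of Kdr and Flt1, had 6 and 129 counts in datL, 2 and 197 in datM, 202 in Lateral and 83 in Medial, against 117 and 44 in serotonin. Cx3cl1, the neuronal ligand of Cx3cr1, had 251 and 41 counts in datL, 681 and 27 in datM, 1002 in Lateral and 331 in Medial, against 188 and 299 in serotonin. It was counted in all 8 libraries, while its receptor was counted in Lateral alone. Pdgfb, which recruits pericytes through Pdgfrb, had 4 and 0 counts in datL, 776 and 0 in datM, 605 in Lateral and 725 in Medial, against 203 and 277 in serotonin. Csf1, a ligand of Csf1r, had 0 throughout datL and datM, 116 in Lateral and 6 in Medial, against 15 and 316 in serotonin. Angpt1, a ligand of Tek, was the only ligand of 8 tested with an unadjusted p under 0.05 between dopamine and serotonin. Over all genes the share was 2.80% on the higher side and 1.90% on the lower. Of its counts, 2262 lay in datL replicate 2 (log2 fold change 11.93, SE 4.83, adjusted p = 0.995 in edgeR). Angpt1 was at 0 in Medial and in both serotonin libraries, so only the higher side was open to it.

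Of the further endothelial genes, Itm2a, a membrane protein of brain vessels, had the smallest p between dopamine and serotonin. It had 1180 and 742 counts in datL, 1277 and 1075 in datM, 491 in Lateral and 1535 in Medial, against 109 and 27 in serotonin (log2 fold change 4.32, SE 1.24, adjusted p = 0.415 in edgeR). Among the further mural and stromal genes it was Sparc, with 766 and 2194 counts in datL, 5431 and 9936 in datM, 2201 in Lateral and 1757 in Medial, against 768 and 686 in serotonin (log2 fold change 2.70, SE 0.98, adjusted p = 0.836 in edgeR). Itm2a was above both serotonin libraries in 6 of 6 dopamine libraries, and it was counted in all 8. Neither gene passed after adjustment.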

How the data were processed

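Ribosome-bound RNA of 8 libraries was analysed from the deposited raw counts per gene. Per the submitters' processing notes, the authors aligned reads with STAR to mm10, and per the file headers they counted them with featureCounts 1.4.3-p1 against GENCODE vM2 without regard to strand. Long-distance PCR of the cDNA, 10 further cycles and single reads of 100 bp are given in the labels' protocols. PCR copies carried no molecular identifiers, so intervals and floors cover counting error only. By identifier, 37607 of 38924 genes had a symbol. Of the members, 7 overlap another annotated gene, 5 of them on the opposite strand.

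Genes were tested over the whole table with edgeR 4.0.16 (quasi-likelihood, TMM factors, default expression filter, two-sided, Benjamini-Hochberg threshold 0.05) in R 4.3.3. Dopamine against serotonin used all 8 libraries, datL against datM a fit of all 5 groups, and the other comparisons their own libraries. SEs came from the fold change and the test statistic. CPM used each library's total. The fits were tested on simulated data. Where a group had 0 counts, its level was set to 3 counts over all its libraries and the fold given as a bound; ratios to 1 to 3 counts carry exact 95% intervals. Results were recomputed with DESeq2 1.42.0, RLE factors, limma-voom (limma 3.58.1), no filter, a replicate block, other sets of libraries and leaving out each library; 10 and 300 counts for the replicate comparison were added after seeing the data.

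The members and lists were chosen with earlier results of these data known, so the lists give no independent support. Genes given in every library were the 4 highest and the lowest of each class per kilobase; those tested, up to 2 per class with the smallest p; between Lateral and Medial, the 2 largest ratios each way among members with at least 100 counts; and up to 2 of each other list. Other genes are further members, or were chosen after their values were seen. Of the other lists, further results by this rule are in the closing section. UTRs and coding regions were not analysed here.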

Additional observations from a re-analysis of the deposited data

Results flagged for a closer look

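Each member's CPM was examined over the 6 dopamine libraries for a library that stood apart from the rest by Dixon's gap ratio, the gap to the nearest library divided by the whole range. Of the 33 members counted in any library, 20 had such a library, or 60.6%, beside 34.7% of all 18712 genes counted in any library; these shares depend on level, and the members are low. Chance gives about 1 in 20 for values with a normal spread, and a gene at 0 in all but 1 of these libraries has a ratio of 1 by construction. Medial stood apart in 7. The ratio was 1 for C1qa, Slco1a4 and Lum, 0.945 for Ctss, 0.694 for Flt1, 0.909 for Vwf and 0.822 for Col3a1. Lateral stood apart in 5, with a ratio of 1 for Cx3cr1, C1qc, Mrc1 and Abcb1a and 0.961 for Col1a2. In datM replicate 2 it was 0.693 for Kdr, 0.999 for Tek, 0.780 for Col6a2 and 0.877 for Postn. In datL replicate 1 it was 0.915 for Esam and 0.984 for Ly6c1, in datL replicate 2 0.878 for Pecam1, and in datM replicate 1 0.975 for Aif1.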

How the results depend on the processing

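Calls over all genes depended on the tool. For dopamine against serotonin edgeR called 0 genes, DESeq2 125, limma-voom 14, the fit of 5 groups 2 and the fit without Lateral and Medial 2; leaving out each library gave 0 to 1. For Lateral and Medial against serotonin edgeR called 3, DESeq2 787, limma-voom 1 and no filter 7, and leaving out each library gave 13 to 2453, the highest without Lateral. For datL against datM edgeR called 0, DESeq2 1588 and limma-voom 243. For Lateral and Medial against datL and datM edgeR called 0, DESeq2 35 and the fit of 5 groups 1. Among the members edgeR called 0 in each comparison, and DESeq2 1, 4, 4 and 0 in the order above; leaving out each library gave 0 to 5 in the second comparison and 0 in the others. The sign changed for Col6a2 in datL against datM (-9.31 to 3.96 over the libraries left out, positive without datM replicate 2), and in Lateral and Medial against datL and datM for Tyrobp (-0.10 with the replicate block, -4.93 without Lateral, up to 1.86) and Col3a1 (-2.12 without Medial, up to 4.25). The cause was not tested.

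Class ratios moved as follows. Without the member of highest mean CPM, the microglial ratio was 3.45 for Lateral and Medial against serotonin and 1.00 against datL and datM, and for datL against datM the endothelial ratio was 1.28 and the stromal 0.0784. Per kilobase the endothelial ratio of datL to datM was 1.60. Leaving out each library gave 0.00619 to 82.1 (microglial) and 0.514 to 4.20 (endothelial) for datL against datM, 2.19 to 7.95 (microglial) and 0.456 to 2.84 (stromal) for Lateral and Medial against datL and datM, 1.20 to 13.4 (stromal) for dopamine against serotonin, 0.883 to 16.7 (stromal) for Lateral and Medial against serotonin, and 0.0773 to 0.174 (stromal) for datL against datM. The share of serotonin members lost in the partner was 55.6% from 10 counts and 50.0% from 300 counts, against 9.92% and 0.114% of all genes.

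Same-numbered libraries did not deviate together (r = 0.0986 between datL and datM, 0.0150 between datL and serotonin, -0.00278 between datM and serotonin, over 15177 genes). The replicate numbers thus gave no sign of a pairing, and a weak correlation cannot exclude a shared preparation. The datL and datM titles carry another number, shared by datL replicate 1 and datM replicate 2, and a pairing by it was not examined. With the replicate block edgeR called 0 genes and 0 members in each comparison where it could be fitted; for Lateral and Medial against serotonin no paired analysis was possible because those groups share fewer than 2 numbers. No value could be had without datM replicate 1 for Aif1 and Col3a1, and without datL replicate 2 for C1qb, in datL against datM, since no count was left in either group.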

Other observations

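Red blood cell RNA differed in kind between the dopamine libraries, a pattern chosen after its values were seen. The adult-type globins Hba-a1, Hba-a2, Hbb-bs and Hbb-bt had at least 100 counts in all 8 libraries. Hbb-y, an embryonic beta-like globin, had 0 counts in Lateral and in Medial, against 3063 and 422 in datL, 2721 and 321 in datM, and 128 and 282 in serotonin. It was at least 1225-fold lower in Lateral and Medial than in datL and datM, with 3 counts over Lateral and Medial as the bound (log2 fold change -13.83, SE 2.53, adjusted p = 0.469 in edgeR), and at least 130-fold lower than in serotonin (adjusted p = 0.286 in edgeR). Hba-x, an embryonic alpha-like globin, was at 0 in Lateral and Medial too, against 808 and 0 in datL, 299 and 536 in datM, and 32 and 62 in serotonin (edgeR adjusted p = 0.800 against datL and datM). Hbb-bh1, another embryonic beta-like globin, had 240 and 211 counts in datL and 1 and 0 in datM. It was at 0 in Lateral and in Medial, against 0 and 35 in serotonin, so it did not part Lateral and Medial from datM. Of the 8 libraries, Lateral and Medial alone carry the E18 mark, and its part in these values was not tested.

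Astrocyte and radial glia genes were the most abundant of the non-neuronal lists. Fabp7, a fatty acid binding protein of radial glia, had 67484 and 36873 counts in datL, 60202 and 32243 in datM, 35954 in Lateral and 36482 in Medial, against 13297 and 15446 in serotonin (log2 fold change 2.01, SE 0.51, adjusted p = 0.328 in edgeR). Sox9, a transcription factor of glia and their precursors, had 3441 and 2165 counts in datL, 7668 and 2380 in datM, 4582 in Lateral and 4438 in Medial, against 872 and 781 in serotonin (log2 fold change 2.62, SE 0.62, adjusted p = 0.328 in edgeR). In contrast to the microglial and vessel genes, both had at least 100 counts in all 8 libraries. The adult-type globins Hbb-bs and Hba-a1 had log2 fold changes of 3.47 (SE 0.99, adjusted p = 0.415 in edgeR) and 3.41 (SE 0.89, adjusted p = 0.334 in edgeR) between dopamine and serotonin.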
